A study of Mus musculus with 2 samples.

Results

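The promoters described here are those of autosomal protein-coding genes where an ATAC-seq peak was listed in Uhrf1 KO embryonic stem cells (ESCs) and none was listed in WT ESCs. ATAC-seq maps open chromatin, because the Tn5 transposase inserts sequencing adapters where nucleosomes leave DNA accessible. A promoter was taken as 2 kb on either side of any annotated transcript start of a gene, and a peak belonged to it when its centre fell inside. The members were chosen by the positions of the peaks in both lists, so that a KO peak and the lack of a WT peak are the selection itself and not a result. Of 21418 promoters, 367 (1.71%, 95% exact binomial interval 1.54% to 1.90%) had KO peaks only, and these are called KO-only promoters. By the mirrored rule 1439 (6.72%, 6.39% to 7.06%) were WT-only promoters, 12319 (57.5%) had peaks in both lists and 7293 (34.1%) had none.

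Both groups were undifferentiated E14 mouse ESCs by their labels, 1 labelled WT and 1 labelled Uhrf1 KO. They shared a serum medium with leukemia inhibitory factor on gelatin or on a layer of mouse embryonic fibroblasts (MEFs), and 50000 cells were lysed for each library. The labels state neither how Uhrf1 was deleted in this line nor whether the line is 1 clone. With 1 library per genotype, nothing below compares the genotypes beyond these libraries, no test was possible, and intervals cover counting error only. The lists hold positions but no read counts, so the depth behind a peak is unknown and a promoter with no listed peak may still hold reads.

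Uhrf1 binds hemimethylated CpG sites after replication and brings the maintenance DNA methyltransferase Dnmt1 to them, and it also reads histone H3 tails. Many mammalian promoters lie in CpG islands, which are rich in G, C and CpG and usually unmethylated and open in most cell types. Promoters poor in CpG are mostly those of tissue-restricted genes and are often methylated and closed in cells that do not use them. DNA methylation and expression were not analysed here.

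The label of the cells was checked first. Of 8 ESC markers, 7 had promoter peaks in both lists, among them Pou5f1, Sox2 and Nanog, which encode the core pluripotency factors. The eighth, Dppa4, was a WT-only promoter. Of 12 genes that mark MEFs, which may underlie the cultures, 6 had peaks in both lists, 2 were WT-only promoters, 4 had none and 0 were KO-only promoters.

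The sequences under the KO peaks ranged from CpG-rich to CpG-free, and 4 that hold several CpGs are shown first to make this range visible. Each is the part of a listed 101 bp KO peak that lies outside annotated exons, read 5′ to 3′ on the strand of the gene from the mm9 genome, with CpG dinucleotides in capitals. Cdc7 encodes a kinase that starts DNA replication, Tipin a replication fork protein, Smc1b the meiotic cohesin subunit and Nicn1 a subunit of the tubulin polyglutamylase complex.
Cdc7 (plus strand, chr5:107393194-107393294): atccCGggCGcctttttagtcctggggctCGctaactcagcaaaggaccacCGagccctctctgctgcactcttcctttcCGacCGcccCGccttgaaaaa
Tipin (plus strand, chr9:64129280-64129380): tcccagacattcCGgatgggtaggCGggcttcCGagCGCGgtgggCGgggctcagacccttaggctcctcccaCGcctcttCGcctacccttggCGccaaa
Smc1b (minus strand, chr15:84962458-84962528): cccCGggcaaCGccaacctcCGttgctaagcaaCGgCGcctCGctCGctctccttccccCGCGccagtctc
Nicn1 (plus strand, chr9:108192693-108192778): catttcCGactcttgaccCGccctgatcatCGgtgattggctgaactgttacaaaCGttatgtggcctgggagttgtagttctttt
These stretches held 7, 9, 9 and 4 CpGs within 101, 101, 71 and 86 bp, respectively. The Smc1b peak lies between divergent starts and is at the same time the KO peak of Ribc2, which encodes a protein of ciliary microtubules.

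In contrast, most KO-only promoters were poor in CpG, as the next 4 sequences show. Spo11 encodes the enzyme that makes the meiotic double-strand breaks, Gcm1 a transcription factor of the trophoblast, Tmod4 a muscle protein that caps actin filaments and Aplnr the receptor for apelin.
Spo11 (plus strand, chr2:172803085-172803185): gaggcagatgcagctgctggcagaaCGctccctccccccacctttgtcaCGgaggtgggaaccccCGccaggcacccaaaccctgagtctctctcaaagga
Gcm1 (plus strand, chr9:77899616-77899716): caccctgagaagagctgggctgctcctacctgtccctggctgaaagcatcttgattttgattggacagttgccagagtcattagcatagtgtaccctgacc
Tmod4 (plus strand, chr3:94928260-94928360): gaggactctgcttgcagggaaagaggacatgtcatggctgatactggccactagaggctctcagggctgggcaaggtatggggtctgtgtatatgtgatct
Aplnr (plus strand, chr2:84976451-84976516): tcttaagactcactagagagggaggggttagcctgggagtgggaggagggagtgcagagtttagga
These stretches held 3, 0, 0 and 0 CpGs, respectively. The last is 66 bp of the peak and the others are whole peaks.

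CpG content was not part of the rule and set the KO-only promoters apart from the other promoters that carried peaks. The start used was the one nearest to a KO peak, or to a WT peak in WT-only promoters. In promoters with no peak it was the outermost start of the gene. Over the 1 kb around this start, the median ratio of observed to expected CpG was 0.320 in the 367 KO-only promoters (quartiles 0.199 and 0.543). It was 0.613 in WT-only promoters, 0.740 in promoters with peaks in both lists, 0.181 in promoters with none and 0.584 over all promoters. The KO-only promoters thus lay between the promoters without peaks and those with peaks in both lists. The median number of CpGs in this 1 kb was 20 in KO-only promoters, 49 in WT-only promoters and 65 in those with peaks in both. GC content followed the same order, with medians of 51.1%, 57.8% and 60.0%, against 45.5% in promoters with no peak. A promoter was called island-like when the GC content was at least 55% and the CpG ratio at least 0.65. Of the KO-only promoters, 43 of 367 (11.7%, 8.61% to 15.5%) were island-like, against 37.7% of WT-only promoters (35.2% to 40.3%), 60.5% of those with peaks in both, 1.80% of those with none and 38.1% of all.

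**Figure D1:**
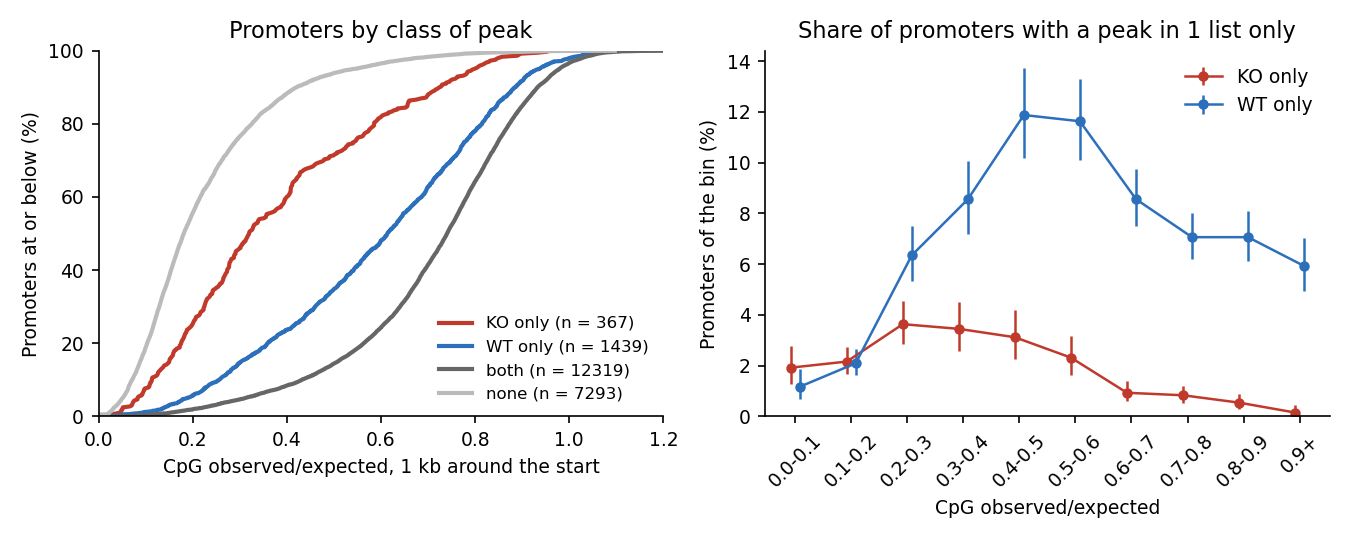
CpG observed to expected ratio over 1 kb around the start. The left panel gives the cumulative percent of promoters of each class (lines) and the right panel the percent of promoters in each bin of the ratio that were KO-only or WT-only (points, with 95% exact binomial intervals as bars). The KO-only line lies between the lines of promoters with no peak and of WT-only promoters, and the KO-only share peaked at 3.63% in the bin from 0.2 to 0.3 and was 0.149% at 0.9 and above.

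Read the other way, the share of promoters that were KO-only varied with CpG content. It was 1.92% (1.28% to 2.76%) of 1459 promoters with a ratio under 0.1, 3.63% (2.87% to 4.53%) of 2064 promoters between 0.2 and 0.3, and 0.149% (0.0308% to 0.436%) of 2008 promoters at 0.9 or more. The WT-only share peaked at a higher ratio, with 11.9% of the promoters between 0.4 and 0.5, and was still 5.93% at 0.9 or more. Under 0.1, 28 promoters were KO-only and 17 (1.17%, 0.680% to 1.86%) WT-only, with overlapping intervals. In the bin from 0.1 to 0.2 the 2 shares were alike within counting error, with 65 KO-only and 63 WT-only promoters of 3010. At every ratio above 0.2, WT-only promoters outnumbered KO-only promoters. Promoters of high CpG ratio mostly had peaks in both lists (92.8% at 0.9 or more), which leaves few that could be in either class.

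The 367 promoters held 417 distinct KO peaks. A total of 313 promoters had 1 KO peak, 47 had 2, 6 had 3 and 1 had 4. The promoter with 4 peaks was that of the gene model Gm17507, and those with 3 included Cfc1, Fam83e, Cmpk2, Dnajc22 and Zfp595. Cfc1 encodes a Nodal co-receptor of the EGF-CFC family and Cmpk2 a mitochondrial nucleotide kinase induced by interferon. Cfc1 had its nearest KO peak 1164 bp inside the gene, in an intron, and the nearest WT peak was 24404 bp from its start. At Fam83e the nearest KO peak lay 48 bp upstream of the start and also within the promoter of Rpl18, which had peaks in both lists.

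The KO peaks concentrated at the start but less so than those of other promoters. The nearest KO peak lay within 100 bp of a start in 164 of 367 promoters (44.7%) and within 500 bp in 234 (63.8%, 58.6% to 68.7%), while 82 (22.3%) had it beyond 1 kb. It was upstream of the gene in 186 promoters, in an intron in 93, in a 5′ UTR in 46, in a coding exon in 18, downstream of a short gene in 14, in a non-coding exon in 7 and in a 3′ UTR in 3. Counted over peaks, 61.2% of the KO peaks at KO-only promoters lay within 500 bp of a start (56.3% to 65.9%), against 82.0% of the KO peaks at promoters with peaks in both lists and 79.3% of the WT peaks at WT-only promoters (77.5% to 81.0%). Between 1.5 and 2 kb the shares were 13.4%, 2.97% and 4.78%, respectively. A total of 277 promoters had the nearest KO peak at the outermost start of the gene and the others had it at a start inside the gene.

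**Figure D2:**
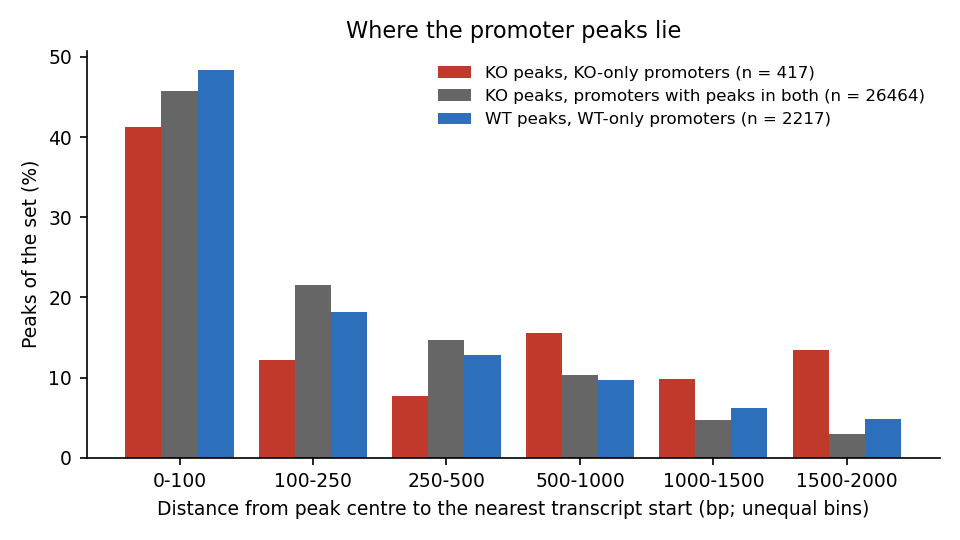
Distance from the peak centre to the nearest transcript start in bp (bins of unequal width), as a percent of the peaks of each set. The bars are the KO peaks of KO-only promoters (n = 417), the KO peaks of promoters with peaks in both lists (n = 26464) and the WT peaks of WT-only promoters (n = 2217). The KO-only set has 41.2% of its peaks within 100 bp, and in each bin beyond 500 bp its share is above those of the other sets.

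Island-like and other KO-only promoters differed in this respect. Of the 43 island-like promoters, 40 (93.0%) had the nearest KO peak within 500 bp of a start, with a median distance of 97 bp. Of the other 324, 194 (59.9%) did, with a median of 151 bp. The island-like members comprised housekeeping genes, among them Psmb5, a catalytic subunit of the proteasome, Clns1a, a chaperone of splicing factor assembly, and the replication genes Cdc7 and Tipin. They also comprised regulators such as Nr5a1 and Nr2e1, both nuclear receptors, and Fgf15, a growth factor. Psmb5 had 2 KO peaks, the nearest 11 bp upstream of the start, and its nearest WT peak was 11998 bp from a start. The KO peak of Cdc7 lay 97 bp upstream of a start with 82 CpGs in the surrounding 1 kb and no WT peak within 38352 bp. These genes were named after their values were seen.

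The nearest WT peak was usually well outside the window. From the starts of a KO-only promoter it was 12361 bp away in the median (quartiles 6278 and 24290 bp, highest 231983 bp). It lay within 2.5 kb in 18 promoters, within 5 kb in 67 (18.3%), within 10 kb in 151 (41.1%) and beyond 50 kb in 35 (9.54%). In 86 promoters (23.4%) the gene itself held a WT peak elsewhere in its body. In 3 promoters (Gc, Pde1a and Hrh2) the gap between the edges of a KO peak and a WT peak was at most 100 bp, with the WT centre on the other side of the 2 kb limit. In Gc, which encodes the vitamin D-binding protein, the KO centre lay 1994 bp and the WT centre 2058 bp from the start and the centres were 64 bp apart. At Pde1a, a phosphodiesterase gene, the distances were 1949 and 2051 bp, and at Hrh2, a histamine receptor gene, 1960 and 2129 bp.

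The limit itself was set by the rule and is described here only by the genes next to it. Just inside, the KO centre lay 1997 bp from the start at Gm2916, 1994 bp at Gc and 1989 bp at Olfr412, an olfactory receptor gene. Just outside and so not members were Myh3 (2004 bp), Krtap29-1 (2008 bp) and Nccrp1 (2014 bp). The WT centre closest to making a member fail lay at 2027 bp in Samd10, followed by Pde1a and Gc. The KO peak of Samd10 was 11 bp upstream of its start.

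**Figure D3:**
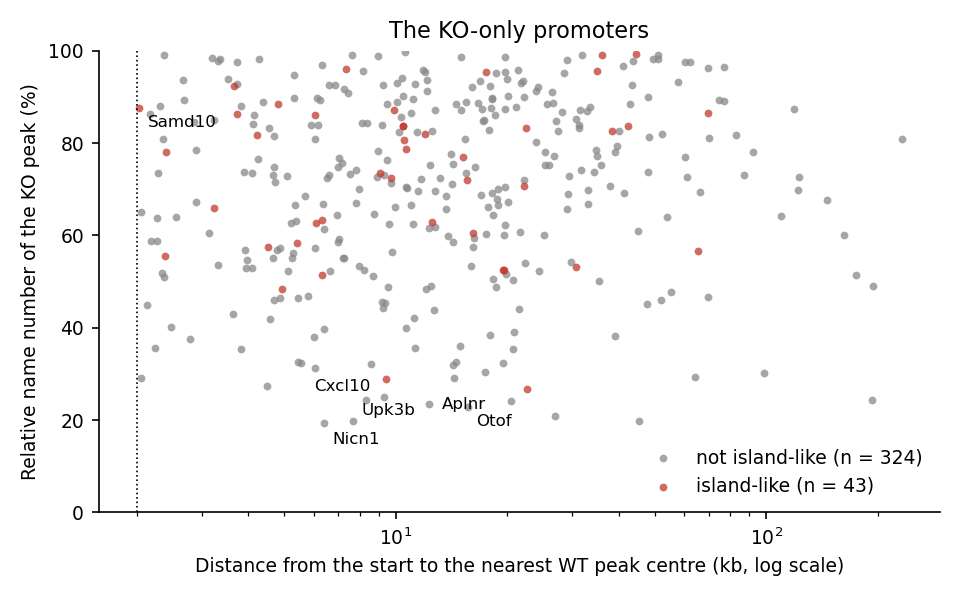
Each point is 1 KO-only promoter, with the distance from its start to the nearest WT peak centre in kb (log scale, the dotted line marks 2 kb). The other axis is the relative name number of its KO peak in percent, the lowest where it had several. Island-like promoters (n = 43) are drawn in red and the other 324 in grey. All lie right of 2 kb by the rule, and the lowest name number is 19.3%, at Nicn1.

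Each peak name carries a number that counts up within its chromosome, and its meaning is not stated in the sources used here. Divided by the largest number on the chromosome, it had a median of 73.7% in the 417 KO peaks of KO-only promoters (quartiles 58.5% and 87.9%). The median was 37.9% in the KO peaks of promoters with peaks in both lists, 48.8% in all autosomal KO peaks and 66.5% in the WT peaks of WT-only promoters. Of the 417 peaks, 61 (14.6%) lay in the lower 50% of the numbers, against 62.3% of the KO peaks of promoters with peaks in both. No KO-only promoter had a KO peak under 19.3%. For a promoter with several KO peaks the lowest number was taken, which need not be that of the peak nearest to the start. What part the name number plays in membership was not tested.

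The 15 members with the lowest name numbers, leaving out 4 genes with clone names, were of diverse kinds. Nicn1 (19.3%) was followed by Upk3b (19.8%), a gene of the urothelial surface, Otof (22.8%), which encodes the calcium sensor of inner hair cells, and Aplnr (23.4%). Next came Arhgap32, a GTPase-activating protein (24.2%), Acot10, an acyl-CoA thioesterase (24.4%), Cxcl10, an interferon-induced chemokine (25.1%), and Clns1a (26.7%). Rsph9, a radial spoke protein of motile cilia (27.4%), Tipin (28.9%), Gc (29.2%), Acsl5, a fatty acid ligase (29.2%), Vmn1r46, a vomeronasal receptor (29.3%), Speer4f (30.3%) and Naip1, a sensor of bacterial proteins (31.2%), completed the list. Aplnr, Rsph9, Tipin and Acsl5 each had 2 KO peaks, of which the lower number is given. The peak nearest to the start had 66.2% at Acsl5 and 29.3% at Rsph9. At 8 of these 15 (Nicn1, Aplnr, Arhgap32, Acot10, Cxcl10, Clns1a, Rsph9 and Tipin) the nearest KO peak lay within 100 bp of a start. At Upk3b, Otof, Gc, Acsl5, Vmn1r46, Speer4f and Naip1 it was 658 to 1994 bp away. The nearest WT peak was 193467 bp from the start of Acot10 but 4502 bp from that of Rsph9.

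Because only 1 alignment per read was reported, a read from repeated sequence is placed at 1 of its copies. The 31 bp at the centre of the KO peak occurred once in the genome for 384 of 417 peaks (92.1%, 89.1% to 94.5%). This share was 98.0% for promoters with peaks in both lists and 89.4% for all autosomal KO peaks. In 26 promoters (7.08%) no KO peak had a centre that could be placed at 1 position. Among the named genes, the peak of Vmn1r46 had 2 copies. Among gene families that lie in clusters, 7 of 1106 olfactory receptor promoters (0.633%, 0.255% to 1.30%), 5 of 327 vomeronasal receptor promoters (1.53%, 0.498% to 3.53%), 2 of 34 protocadherin promoters (5.88%, 0.720% to 19.7%) and 4 of 53 defensin promoters (7.55%, 2.09% to 18.2%) were KO-only, against 1.71% of all promoters. For olfactory receptors 1077 promoters had no peak in either list.

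Among gene lists that bear on Uhrf1 and on ESCs, germline genes held the most members. Of 63 germline promoters 4 were KO-only (6.35%, 1.76% to 15.5%, against 1.71% of all promoters), while 14 were WT-only (22.2%, against 6.72% of all) and 29 had peaks in both lists. The count rests on 4 genes, and the lower end of its interval lies just above the share over all promoters. The interval is not adjusted for the number of lists and families looked at. The KO peak of Spo11 lay 66 bp upstream of a start, that of Smc1b 121 bp upstream, and that of D1Pas1, which encodes a DEAD-box RNA helicase of spermatocytes, 9 bp upstream. In Piwil4, which encodes a piRNA-binding protein of fetal male germ cells, it lay in an intron 1875 bp from a start. With 1 kb on either side of a start, Spo11, Smc1b and D1Pas1 were still KO-only and Piwil4 was not. WT peaks were 14124, 19558, 44467 and 6965 bp from the nearest starts of Spo11, Smc1b, D1Pas1 and Piwil4, respectively. Smc1b and D1Pas1 were island-like, with 63 and 66 CpGs in 1 kb, and Spo11 and Piwil4 were not, with 17 and 12. The name number of the D1Pas1 peak was 99.4% of the largest on its chromosome. Stra8, the retinoic acid-induced gatekeeper of meiosis, is a germline gene that the list did not hold and was picked after its values were seen. It had 2 KO peaks, the nearest 42 bp inside the gene, 14 CpGs in 1 kb, and a WT peak 6383 bp from the start.

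The other lists each contributed at most 1 member. Over all promoters, 1.71% were KO-only and 6.72% WT-only. Of 31 promoters of genes of the 2-cell stage, Obox5, a homeobox gene of the oocyte and early embryo, was KO-only (3.23%, 0.0816% to 16.7%), 3 had peaks in both and 27 had none. Its KO peak lay 24 bp inside the gene, with 8 CpGs in 1 kb. Of 20 trophoblast promoters, Gcm1 was KO-only (5%, 0.127% to 24.9%) and 4 were WT-only (20%). Gcm1 had a KO peak 99 bp upstream of the start, 9 CpGs in 1 kb and a WT peak 12729 bp away. Of 45 promoters of mesoderm and heart genes, Myh6, which encodes the alpha cardiac myosin heavy chain, was KO-only (2.22%, 0.0562% to 11.8%). Its KO peak lay in an intron 1140 bp from a start, and 10 promoters of that list were WT-only (22.2%, against 6.72% of all). Of 40 genes of DNA methylation and chromatin, Kdm6b, an H3K27 demethylase gene, was KO-only (2.5%, 0.0633% to 13.2%). A further 2 were WT-only (5%) and 37 had peaks in both. Kdm6b lay near the limit, with the KO peak 1774 bp from a start, a WT peak 590 bp from that KO peak and 7 WT and 7 KO peaks in the gene. There were 0 KO-only promoters among 33 pluripotency genes, 45 neuroectoderm genes, 24 endoderm genes, 40 imprinted genes and 39 genes that the study names, where a count of 0 allows a share of up to 10.6%, 7.87%, 14.2%, 8.81% and 9.03% (upper ends of the exact intervals).

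**Figure D4:**
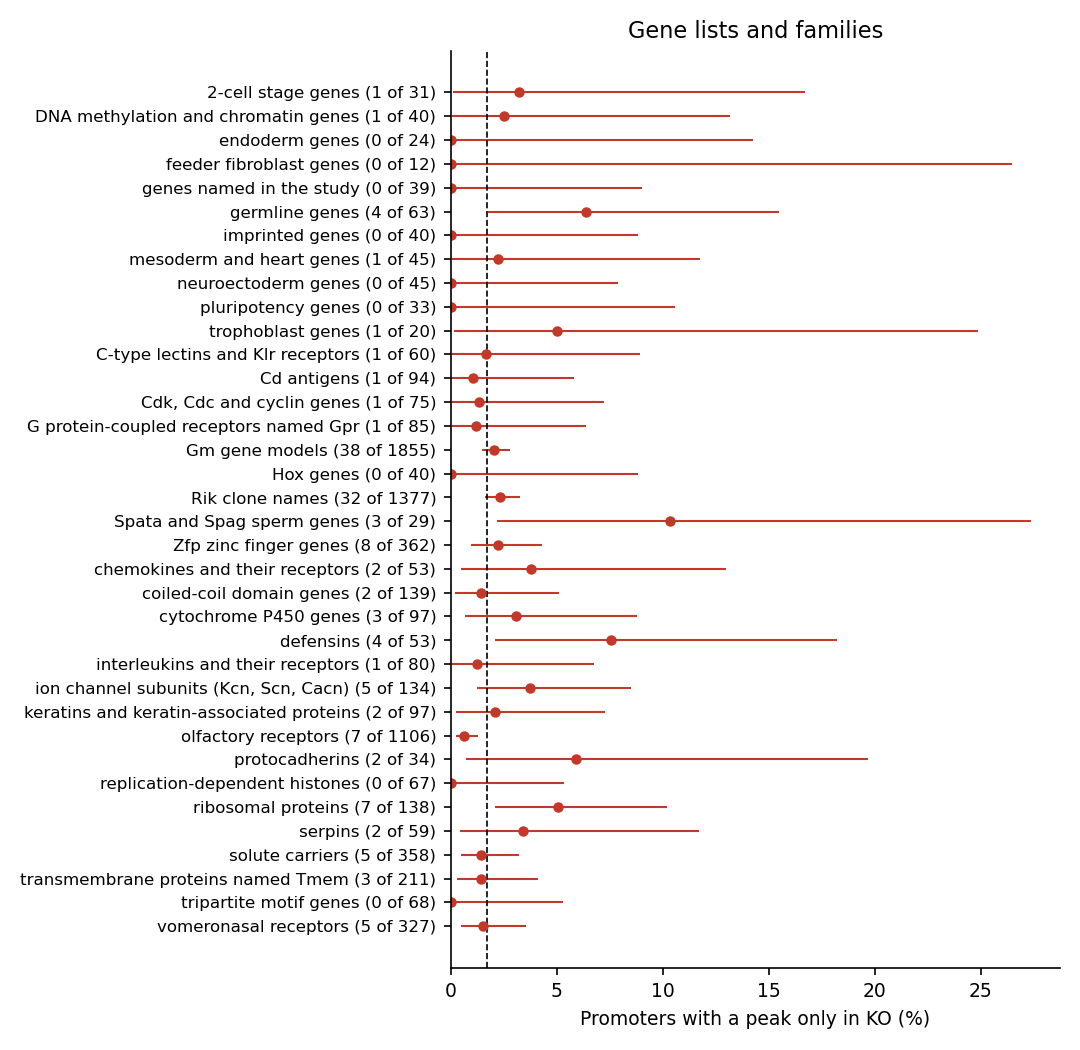
Percent of the promoters of each gene list or family that were KO-only, with 95% exact binomial intervals as bars and the numbers of KO-only and of all promoters in parentheses. The dashed line marks the share over all promoters, 1.71%, and the intervals are not adjusted for the number of lists and families. The upper 11 lists are those that bear on Uhrf1 and ESCs and the others are families by name, of which those with at least 20 promoters are drawn. The intervals of the germline genes (4 of 63), the ribosomal proteins (7 of 138), the defensins (4 of 53) and the Spata and Spag genes (3 of 29) lie above the line, and that of the olfactory receptors lies below it.

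Among families by name, 7 of 138 ribosomal protein promoters (5.07%, 2.06% to 10.2%) were KO-only, 6 were WT-only and 71 had peaks in both lists. These included Rpl4, Rpl8, Rpl19, Rpl35a, Rps28 and Rps6-ps1. In Rpl8, Rpl19, Rpl35a and Rps28 the KO peak was 22 to 109 bp upstream of a start, and in Rpl4 and Rps6-ps1 it was 486 and 1331 bp upstream. Rpl19 had 76 CpGs in 1 kb and a WT peak 3735 bp from the nearest start. Ribosomal protein genes have many processed copies in the genome, and Rps6-ps1 carries a pseudogene symbol, but the centre of the nearest KO peak was single-copy in each of the 7. Some of these peaks were shared with a neighbour. The Rpl35a peak was also in the promoter of Iqcg, which had peaks in both lists, the Rps28 peak was shared with Ndufa7 and the Rpl4 peak with Zwilch, which encodes a kinetochore protein.

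The defensins, small antimicrobial peptides, had 4 KO-only promoters of 53 and 0 in each other class with peaks. The KO peaks lay 145 bp (Defb29), 269 bp (Defb9), 426 bp (Defb1) and 991 bp (Defb30) upstream of the start. Defb1 and Defb9 had 3 CpGs in 1 kb. The Spata and Spag genes of sperm had 3 of 29 (10.3%, 2.19% to 27.4%). In Spag17 and Spag8 the KO peak lay 35 and 42 bp upstream of the start, and in Spata18 it lay in an intron at 411 bp. The KO peak of Spag8 was also in the promoter of Hint2, which had peaks in both lists. Of 362 Zfp zinc finger promoters 8 were KO-only (2.21%, 0.959% to 4.31%) and 273 had peaks in both. There were 0 KO-only promoters among 40 Hox genes, of which 10 were WT-only (25%, against 6.72% of all promoters). There were also 0 among 67 replication-dependent histone genes, all of which had peaks in both lists.

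Genes induced by interferon form a group assembled after the members were seen, so that its count supports nothing. Of 55 such promoters 8 were KO-only (14.5%, against 1.71% of all promoters), 4 WT-only (7.27%, against 6.72%), 23 had peaks in both lists and 20 had none. They included Cxcl10, Rsad2, which encodes the antiviral protein viperin, Cmpk2, Ifi35, Irgm2, an immunity-related GTPase, Parp14, an ADP-ribosyltransferase, and Apobec3, a cytidine deaminase that restricts retroviruses. The KO peak lay within 100 bp upstream of a start in 5 of these, at 17 bp (Rsad2), 63 bp (Cxcl10), 68 bp (Apobec3), 93 bp (Irgm2) and 99 bp (Parp14). Ifi35 had its nearest KO peak 716 bp upstream and Cmpk2 647 bp inside the gene. Rsad2 and Cmpk2 are neighbours and together held 4 KO peaks, with no WT peak within 39569 bp of a start of Rsad2. Parp14 had a WT peak 2184 bp from a start, just outside the window. The peak sequences of Cxcl10 and Irgm2 are given with the non-exonic bases, because they hold letters that transcription factors of this response recognise.
Cxcl10 (minus strand, chr5:92777928-92778028): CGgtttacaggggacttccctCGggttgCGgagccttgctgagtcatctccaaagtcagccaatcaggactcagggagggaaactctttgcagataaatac
Irgm2 (plus strand, chr11:58028387-58028487): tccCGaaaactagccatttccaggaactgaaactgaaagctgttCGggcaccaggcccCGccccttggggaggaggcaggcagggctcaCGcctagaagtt
The Irgm2 peak holds the core AANNGAAA, in which N is any base, the letters bound by interferon regulatory factors (IRFs). Within the central 200 bp and on either strand, 4 of the 11 KO peaks of the 8 genes held this core (Apobec3, Cmpk2, Irgm2 and Rsad2), compared with 14.4% of the KO peaks of KO-only promoters, 7.17% of those of promoters with peaks in both and 12.4% of all promoters. The letters GGGANTTCC, a part of the NF-κB site, were held by 1 of the 11 peaks, that of Cxcl10, and by 1.30% of all promoters. Both motifs were added after the sequences were seen.

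A further such group was of motile cilia and the sperm flagellum, with 6 of 30 promoters KO-only (20%, against 1.71% of all promoters). These were Efcab6, Ribc2, Rsph9, Spag8, Spag17 and Stk36. A further 4 were WT-only (13.3%, against 6.72%) and 14 had peaks in both lists. This group and those of muscle and NADH dehydrogenase were also assembled after the members were seen, so that their counts support nothing. At the 6 KO-only genes of cilia and flagellum the nearest KO peak lay within 42 bp of a start. Another was of muscle contraction, with 5 of 56 KO-only (8.93%, against 1.71% of all promoters) and 5 WT-only (8.93%, against 6.72%). Its KO-only members were Des, Myh6, Neb, Pgam2 and Tmod4, and 37 promoters of that group had no peak in either list. In Des, which encodes desmin, and Tmod4 the KO peak lay 75 and 88 bp upstream of a start, and in Neb, Pgam2 and Myh6 it was 1042 to 1540 bp from a start. Of 41 promoters of genes for NADH dehydrogenase subunits and their assembly, 4 were KO-only (9.76%, against 1.71% of all promoters). A further 2 were WT-only (4.88%, against 6.72%) and 34 had peaks in both lists. The KO peaks of Ndufa7, Ndufa9, Ndufaf1 and Ndufb8 were 7 to 68 bp from a start.

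Some members were neighbours or shared a peak. In 31 promoters (8.45%) the KO peak was also in the promoter of another protein-coding gene, which was a KO-only promoter in 19 and had peaks in both lists in 12. Within 100 kb of each other lay 58 members in 28 groups of 2 or 3. The largest held Angptl4, Rps28 and Ndufa7. Divergent or overlapping starts with a shared peak were Smc1b and Ribc2, Rnf25 and Stk36, Zmynd15 and Cxcl16, Abi3 and Gngt2, and Zwilch and Rpl4, so that 1 peak counted for 2 genes in each. Kcnb2 stood for 2 gene entries, and the members had 365 distinct symbols.

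By chromosome, the KO-only share ran from 0.647% on chromosome 8 (7 of 1082 promoters, 0.260% to 1.33%) to 2.37% on chromosome 5 (31 of 1309, 1.61% to 3.34%). The interval of chromosome 8 alone lay wholly below 1.71%. Its WT-only share was 7.30% (5.82% to 9.02%), close to 6.72% over all autosomes. KO-only promoters of chromosome 8 included Defb1, Defb9 and Sult5a1.

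**Figure D5:**
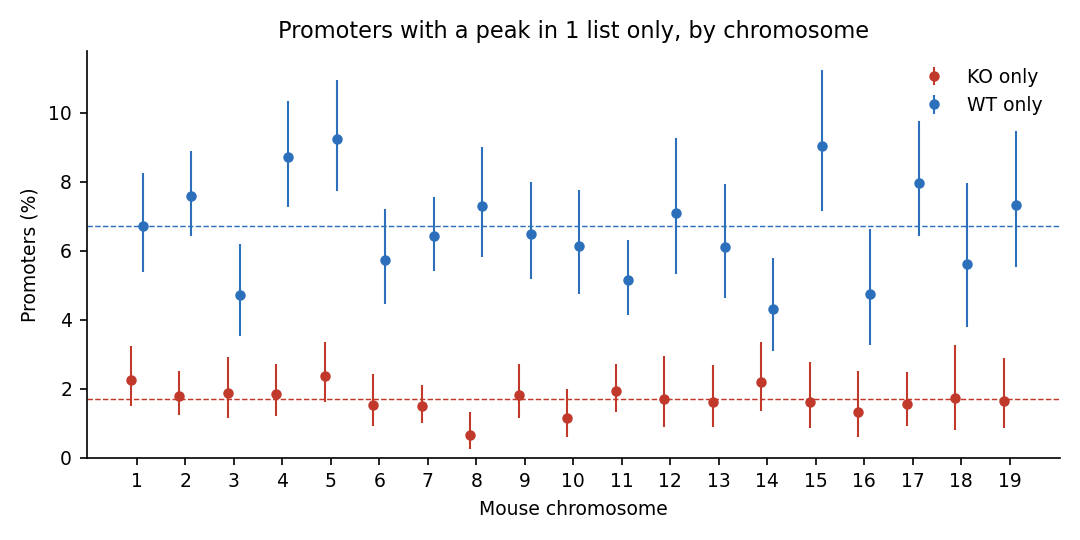
Percent of the protein-coding promoters of each autosome that were KO-only (red) or WT-only (blue), with 95% exact binomial intervals as bars and dashed lines at 1.71% and 6.72%, the shares over all autosomes. Chromosome 8 has the lowest KO-only share, 0.647%, and the WT-only share is above the KO-only share on every autosome.

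The GC box was less frequent under the KO peaks of KO-only promoters than under those of promoters with peaks in both lists, which did not hold for every motif with a CpG. Within the central 200 bp and on either strand, the GC box GGGCGG was held by 24.9% of the 417 KO peaks of KO-only promoters (20.9% to 29.4%), 59.4% of the KO peaks of promoters with peaks in both lists, 34.8% of all autosomal KO peaks and 43.0% of all promoters (200 bp around a start). The cAMP response element TGACGTCA was held by 2.64% (1.32% to 4.67%), 2.15%, 1.29% and 1.90%, and the E-box CACGTG by 6.71% (4.51% to 9.56%), 7.12%, 5.34% and 5.42%, respectively. The GATA motif AGATAA was held by 7.91% (5.51% to 10.9%), 2.37%, 5.74% and 4.95%, the AP-1 motif TGANTCA by 6.95% (4.71% to 9.84%), 2.80%, 5.13% and 3.92%, and the Sox motif ACAAAG by 16.5% (13.1% to 20.5%), 8.35%, 14.3% and 10.1%. For these 3 motifs the share in peaks of promoters with peaks in both lists lay below the interval and the share in all KO peaks lay within it. The TATA box TATAAA was held by 5.04% (3.14% to 7.60%), 2.20%, 5.32% and 7.88%. The octamer ATGCAAAT bound by Oct4 was in 10 peaks (2.40%, 1.16% to 4.37%), against 0.982% of the peaks of promoters with peaks in both and 1.94% of all KO peaks, and the latter lies within the interval. The CCAAT box differed little, with 28.1%, 27.4%, 28.2% and 26.8%. CTCF, NRF1 and YY1 motifs, which also hold a CpG, were each in 4 peaks (0.959%, 0.262% to 2.44%). The peaks of promoters with peaks in both lists held them in 2.53%, 1.99% and 1.48%, respectively. The E2F motif TTCCCGCC was in 5 peaks (interval 0.390% to 2.78%), against 3.16%. The ETS motif CCGGAAGT was in 2.64% (1.32% to 4.67%), against 4.198%. Each of these motifs was thus less frequent, as was the GC box, but only for CTCF and E2F did the comparison share lie above the interval. No CpG was present in 8.15% of the 417 peaks, 0.722% of the peaks of promoters with peaks in both and 7.49% of all KO peaks, so that the KO peaks of KO-only promoters resembled KO peaks in general more closely than those of other open promoters in this respect.

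The count of members moved with the definition of a promoter and with the length of the lists. With 5 kb in place of 2 kb on either side, 518 promoters were KO-only, of which 300 were members under 2 kb. The WT list held 71914 peaks and the KO list 61640. With the WT list shortened to 61640 peaks by name number, 502 promoters were KO-only and 1169 WT-only, which moved their ratio from 0.255 to 0.429. Setting the KO peaks numbered in the first 50% against every WT peak left 61 promoters, which was tried after seeing the data.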

How the data were processed

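ATAC-seq was performed by the authors on 1 WT and 1 Uhrf1 KO library. Alignment was to mm9, using Bowtie2 2.1.0 with local alignment and 1 reported position per read, and the authors used fragments shorter than a mono-nucleosome. HOMER 4.9.1 appears in the submitters' processing notes without a role. Peak calling, threshold and any shift to the Tn5 cutting site are not given in the sources used here. The deposited values are peak positions (101 bp intervals), names and a score that is 1 for every peak and was not used. Reads per peak are unknown.

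Peaks were assigned by their centre to 2 kb around all transcript starts of GENCODE vM1 protein_coding genes, on the same build, using Python 3.11.15, pandas 2.3.3, numpy 2.4.6, scipy 1.17.1, numba 0.67.0 and matplotlib 3.10.9. Position, base composition, 31 bp copy number and motifs were computed from the NCBIM37 genome. Shares have 95% exact (Clopper-Pearson) intervals. No test, replicate or left-out replicate was possible with 1 library per genotype. The classification was run on 20000 simulated promoters, with peaks planted within 2 kb of the first start or outside every window, and made 0 wrong calls. Peaks reached only from a second start and promoters that overlap were not simulated.

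The members, gene lists and tests were chosen with earlier results of these data known, and the interferon, cilium, muscle and NADH dehydrogenase groups after the members were seen. Genes were named if on a list, if among the 10 with most KO peaks (ties by name number), if among the 15 with the lowest name number without clone names, or if among 3 on either side of a limit. Others are named as group members or as chosen after their values were seen. Some members are not reported here by name.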

Additional observations from a re-analysis of the deposited data

How the results depend on the processing

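No paired analysis was possible because there was a lone library for WT and for Uhrf1 KO. Of 39 alternative values, 36 stayed within 1.5 times the count or within the spread of the value reported. A count that stayed within this range need not hold the same promoters. Only the KO-only to WT-only ratio could count as reversed, by rising above 1, and it did so in 0 settings. The number of KO-only promoters was 323 with 1 kb on either side of a start, 518 with 5 kb, 300 without a WT peak within 5 kb of any start, 369 with any overlap and 370 with single-copy peaks. Of the 323, 285 were members under 2 kb, and of the 411 found in the lower 50% of name numbers of both lists, 61 were. The KO-only to WT-only ratio was 0.429 with the WT list shortened to the length of the KO list, against 0.255. The KO-only count was 61 with the lower 50% of KO name numbers against the whole WT list (chosen after seeing the data). The share of KO peaks holding a CpG was 81.1% over the peak as listed, against 91.8% over 200 bp, a longer window by construction. Members of the gene lists numbered 7 with 1 kb and 9 with 5 kb, against 8, of which 5 and 7 were among the 8. Unknown reads per peak limit every count, since a peak just under the threshold in 1 library makes a promoter KO-only or WT-only.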

Other observations

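Further KO-only promoters are given here as single genes that were picked after their values were seen and stand for no group. Among families of immune genes by name, 1 of 94 Cd antigens (1.06%, 0.0269% to 5.79%) and 1 of 80 interleukins and their receptors (1.25%, 0.0316% to 6.77%) were KO-only. So were 1 of 60 C-type lectins and Klr receptors (1.67%, 0.0422% to 8.94%) and 2 of 53 chemokines and their receptors (3.77%, 0.460% to 13.0%). The share over all promoters, 1.71%, lay within each of these intervals, while the defensins are described above. Tlr4 and Tlr5, receptors for bacterial products, had KO peaks 691 and 29 bp inside the gene, and the nearest WT peaks were 52143 and 4249 bp from their starts. Cd2, an adhesion molecule of T cells, had 2 KO peaks, 1 of them centred on the start, with a WT peak 18937 bp away. H2-Aa, an MHC class II gene, had its KO peak 120 bp upstream of the start. Lepr, the leptin receptor gene, had 2 KO peaks, the nearest 179 bp from a start, and a WT peak 69615 bp away. The KO peak of Upk1b, like Upk3b a gene of the urothelial surface, lay 84 bp upstream of a start. Tek, the angiopoietin receptor gene of endothelium, had its KO peak 86 bp upstream of a start at a name number of 32.1%.

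A total of 70 KO-only promoters belonged to genes with clone names only, 38 of 1855 Gm models (2.05%, 1.45% to 2.80%) and 32 of 1377 Rik genes (2.32%, 1.59% to 3.26%), and their transcript starts are less well established than those of named genes.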
